A study of Caenorhabditis elegans with 16 samples.

Results

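The response of arrested wild-type L1 larvae to food was measured as the difference between 2 libraries of larvae fed for 4 h and 2 libraries of larvae starved for the same 4 h, which are 4 of the 16 libraries of the study. Both groups were whole N2 wild-type Caenorhabditis elegans larvae at the first larval stage. Embryos had been released by bleaching and left without food in S-Medium at 20 °C for 12 h or longer, so that they hatched and arrested. The starved group then received DMSO at 0.1% and nothing to eat. The fed group received the same DMSO and a pellet of OP50, the Escherichia coli strain on which laboratory worms are raised. Wild-type larvae taken at the start of the 4 h (2 libraries) and wild-type larvae fed in the presence of 3MB-PP1 at 1 µM (2 libraries) served as reference points. The compound inhibits the CDK-12 kinase of the engineered cdk12-as strain, and wild-type larvae carry the unmodified kinase. The same 2 groups, fed and starved, of cdk12-as larvae without inhibitor (4 libraries) were used for one comparison between strains.

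Larvae that hatch without food stop before any postembryonic cell division and can survive for weeks in this state, known as L1 arrest. Low insulin signalling through the receptor DAF-2 keeps the FOXO transcription factor DAF-16 in the nucleus and holds the arrest, while the TOR kinase and AMPK read amino acids and energy. When food arrives, insulin-like peptides and nutrients release the block, and growth, cell division and the moulting cycle begin.

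Total RNA depleted of ribosomal RNA had been sequenced in paired-end mode, and the deposited values are read counts per gene. Counts assigned to genes were 35619751 and 18588196 in the starved libraries (replicates 1 and 2) and 35141011 and 19646994 in the fed ones. One ribosomal RNA gene, rrn-2.1, still took 34.8 and 24.5% of them in starved and 43.2 and 26.2% in fed larvae. Levels below are counts per 1e6 gene reads (CPM) after TMM scaling, which sets the typical gene equal between libraries. Levels of different genes are compared only as RPKM, which is the CPM divided by the exon length in kilobases. Fold changes are log2 of fed over starved with their SE, and p-values are Benjamini-Hochberg adjusted over all genes tested with edgeR's quasi-likelihood test, with 0.05 as the threshold. A gene is said to have risen or fallen only where it passed. The labels number 2 replicates in each group but tie no number to a culture of its own. The p-values therefore rest on the variation among these libraries alone, and that variation may be technical. The count table holds 1402 of 5389 genes of the X chromosome and the genes of the other chromosomes. The other X genes, among them aak-2, lin-14, daf-9 and daf-12, were not analysed here.

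The libraries carried the transcripts of larval tissues and hardly any of other stages. Summed over the 6 intestine markers the level was 1220 and 1120 CPM in starved and 2430 and 3400 CPM in fed libraries, and over the 5 body wall muscle markers it was 9050 and 8850 against 4280 and 5140 CPM. The 8 neuron markers summed to 1450 and 1460 CPM in starved and 1030 and 1100 CPM in fed libraries, and the 5 pharynx markers to 1200 and 949 against 601 and 735 CPM. Early embryo markers summed to at most 1.35 CPM, sperm markers to at most 1.23 CPM and oocyte and yolk markers to at most 6.52 CPM in any of the 4 libraries. These levels are relative to the RNA of whole larvae. Less RNA in a tissue and more RNA in other tissues therefore cannot be told apart, and cell numbers were not measured.

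Food changed the level of 7282 of the 15845 genes tested within 4 h (46.0%), in nearly even numbers of rises and falls. Of these 3868 rose (24.4% of all tested) and 3414 fell (21.5%), with median log2 fold changes of 0.88 and -1.07. More than 4-fold, 316 genes rose and 670 fell. At more than 2-fold 1622 genes rose (10.2%) and 1849 fell (11.7%). The excess of falls over 2-fold was absent once genes averaging below 5 CPM were left out, with 887 rises and 840 falls. The counts over 4-fold were not repeated with that filter. Without regard to the test, both fed libraries lay above both starved libraries for 5802 genes (36.6%) and below them for 5845 (36.9%). The SD over genes of the log2 difference between replicates was 0.45 in starved and 0.53 in fed larvae, against 1 for the difference between the fed and starved means. How the libraries are scaled sets the balance of rises and falls. With scaling to total gene counts, in which rrn-2.1 counts in full, 1314 genes rose and 3701 fell and the shift of the median gene was -0.37. With totals that leave rrn-2.1 out, 2662 rose and 4923 fell and the shift was -0.25. Rises are therefore 53.1% of the calls with TMM, 35.1% with totals without rrn-2.1 and 26.2% with totals, and all changes below are relative to the typical gene. Of the tissue markers, 3 of 5 for body wall muscle, 3 of 5 for pharynx and 4 of 8 for neurons fell and none of these rose, while 3 of 6 for intestine rose and 2 fell. Of 4 epidermis markers tested 2 rose and 1 fell, and of 5 tested for primordial germ cells none rose and 1 fell.

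**Figure D1:**
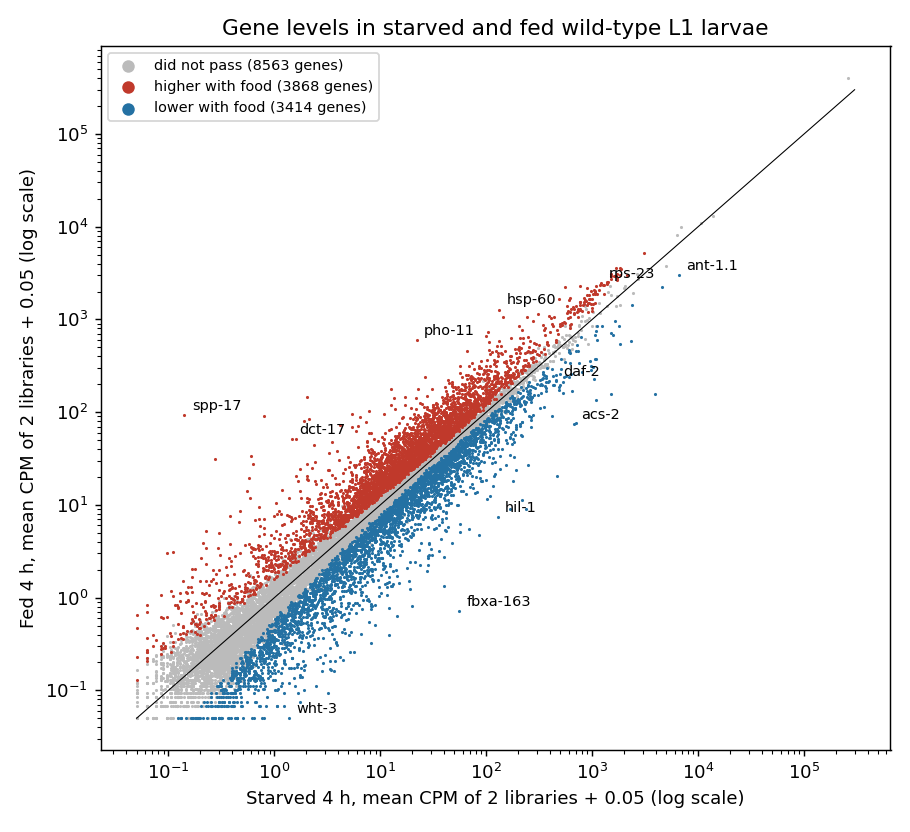
Mean CPM plus 0.05 of each of 15845 genes in the 2 fed wild-type libraries against the 2 starved ones, both axes logarithmic, with the line of equal levels. Red points are the 3868 genes that rose, blue points the 3414 that fell and grey points those that did not pass; spp-17 lies far above the line and fbxa-163 and wht-3 far below it.

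On the first principal component the starved larvae lay near those at the start, and on the second they lay apart. On the first principal component of the 8 wild-type libraries, which carried 68.2% of the variance of log2 CPM, the start libraries lay at -64.6 and -68.2 and the starved ones at -56.3 and -58. The fed libraries lay at 62.8 and 60.5, and those fed with 3MB-PP1 at 64.3 and 59.5. The second component carried 11.9% of the variance and had the start libraries at 42.3 and 18.2, the starved ones at -20.2 and -43.6 and the fed ones at 7.6 and -12.1. Of the 1622 genes more than 2-fold higher with food, 1524 (94%) had a start level nearer to the starved than to the fed mean, and this held for 1689 of the 1849 lower ones (91.3%). Both libraries fed in the presence of 3MB-PP1 lay above both starved libraries for 1601 of the risen genes. They lay below both starved libraries for 1825 of the fallen ones (98.7% of each set). The same starved libraries had entered the selection of these genes, so these shares are no independent test of the response. The shares over all genes tested were not counted.

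The 10 largest rises at a mean of at least 20 CPM lay between 3.7 and 9.65 on the log2 scale. The saposin-like gene spp-17 had 0.183 and 0 CPM in the starved libraries and 92.2 and 94.2 CPM in the fed ones. Its fitted value of 9.65 rests on that near absence in starved larvae, and was 14.64 without starved replicate 1. The collagen gene col-149 (V, 10291769 to 10292787, minus strand) went from 1.72 and 2 CPM to 77.7 and 81.3 CPM, or by 5.43 ± 0.27. Prolyl carboxypeptidase-like pcp-2 (chromosome IV, 9160881 to 9165107 of build ce10, minus strand) had 1.7 and 2.48 CPM in the starved libraries and 81.2 and 86.2 CPM in the fed ones, which is a log2 change of 5.35 ± 0.19 (adjusted p = 2.97e-09). The glucuronosyltransferase gene ugt-22 (IV, 13639326 to 13644018, plus strand), whose enzyme family conjugates small molecules for excretion, had 2.22 and 2.43 CPM in starved and 49.5 and 39.8 CPM in fed libraries (4.27 ± 0.16, adjusted p = 3.52e-09). The cysteine synthase-like gene cysl-2 (II, 14492876 to 14494344, minus strand), known for the detoxification of cyanide, went from 14 and 10.9 CPM to 176 and 178 CPM (3.82 ± 0.2, adjusted p = 3.41e-08). For pcp-2, ugt-22 and cysl-2 the fed libraries lay together and more than 10-fold above the starved ones, and the start libraries, too, were far below the fed ones. The fibrillin-like gene fbn-1 (III, 7625321 to 7640491, plus strand), a component of the matrix at the body surface, had 9.17 and 6.21 CPM in starved and 111 and 96.6 CPM in fed libraries (3.74 ± 0.41, adjusted p = 8.82e-06). The cathepsin B-like protease gene cpr-5 rose by 3.78 ± 0.61 (adjusted p = 0.000242), and its fed libraries were further apart, at 38.4 and 56.7 CPM. The remaining members of the 10 were dct-17 (5.17), pho-11 (4.77) and mth-1 (3.7).

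**Figure D2:**
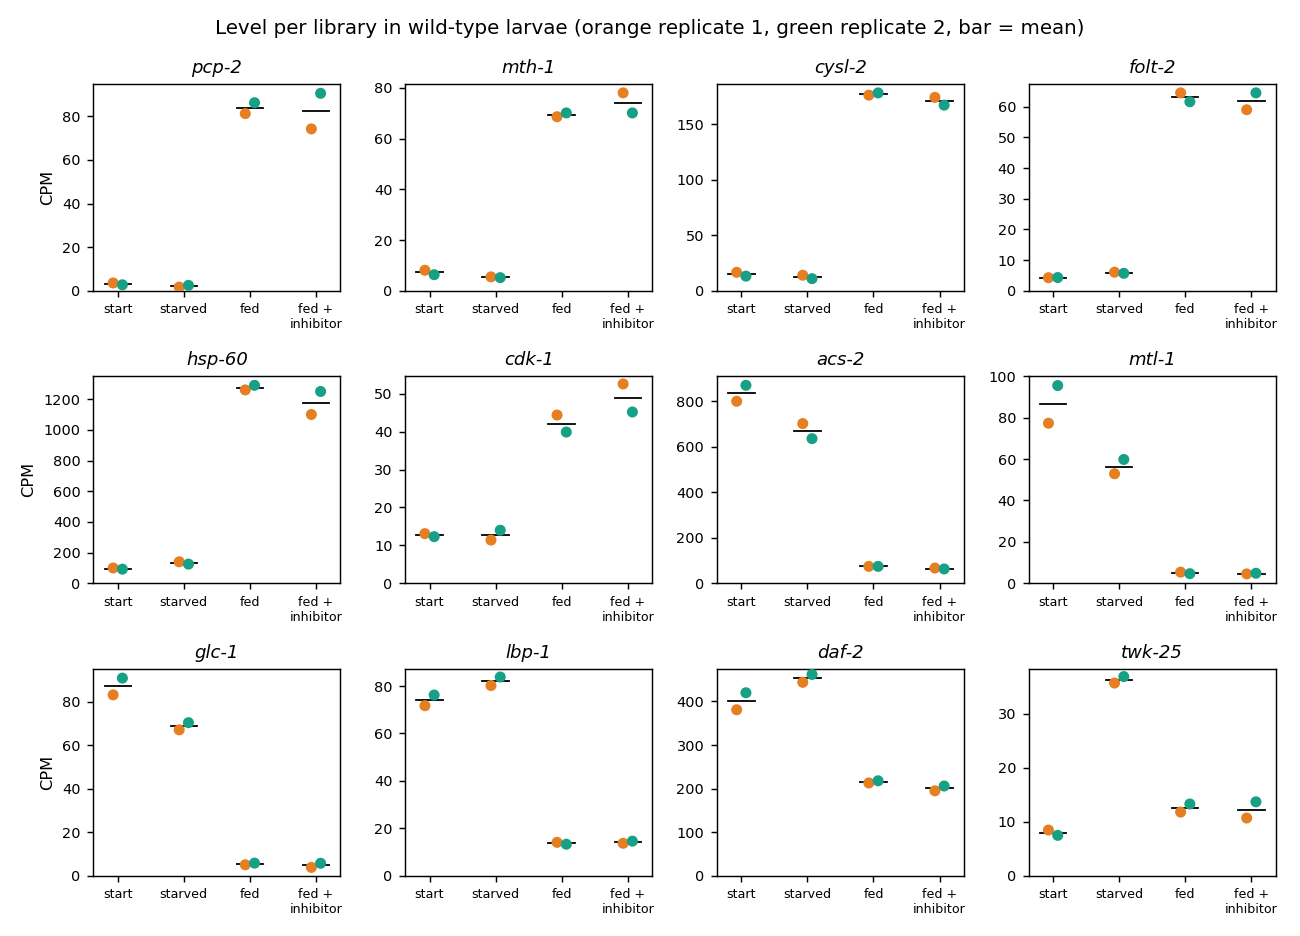
CPM of 12 genes in each of the 8 wild-type libraries at the start, after 4 h of starvation, after 4 h of food and after 4 h of food with 3MB-PP1; orange and green points are replicates 1 and 2 and bars are means of 2, on linear axes from 0. The start and starved libraries lie together in most panels and the fed libraries apart from them, while twk-25 is at 8.47 and 7.49 CPM at the start, 35.7 and 36.9 CPM in starved and 11.8 and 13.3 CPM in fed larvae.

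The 10 largest falls at a mean of at least 20 CPM lay between -6.42 and -3.02. The F-box gene fbxa-163 had 53.5 and 56.9 CPM in the starved libraries and 0.463 and 0.867 CPM in the fed ones (-6.42 ± 0.38). The linker histone gene hil-1 went from 124 and 134 CPM to 7.26 and 7.45 CPM (-4.13 ± 0.15). The acyl-CoA synthetase gene acs-2 (V, 15567389 to 15569666, plus strand), which prepares fatty acids for oxidation and is a standard marker of fasting in this species, had 701 and 635 CPM in the starved libraries and 74.2 CPM in both fed ones (-3.17 ± 0.36, adjusted p = 1.22e-05). Its start level was 799 and 869 CPM. The hydroxyacyl-CoA dehydrogenase gene hacd-1 (V, 1460388 to 1461510) went from 114 and 102 CPM to 12.3 and 12.5 CPM (-3.12 ± 0.34, adjusted p = 8.87e-06), and far-7, of a family that binds fatty acids and retinol, from 197 and 188 CPM to 24.6 and 22.7 CPM (-3.02 ± 0.17, adjusted p = 4.67e-08). For all 3 the starved libraries lay between the start and fed libraries and nearer to the start. The metallothionein gene mtl-1 (V, 6691468 to 6691815, minus strand), a known target of DAF-16, had 52.9 and 59.8 CPM in starved and 5.38 and 4.64 CPM in fed libraries (-3.49 ± 0.19, adjusted p = 3.94e-08). The glutamate-gated chloride channel gene glc-1 (V, 16219690 to 16221810), a target of the anthelmintic ivermectin, went from 67.1 and 70.4 CPM to 5.06 and 5.82 CPM (-3.66 ± 0.21, adjusted p = 5.71e-08). The chitinase gene cht-1 fell by 3.25 ± 0.36 (adjusted p = 1.14e-05), with fed libraries at 3.7 and 8.52 CPM, and by -3.94 without fed replicate 2. The others of the 10 were the cadherin gene cdh-5 (-3.62) and the complex I subunit gene nduf-2.2 (-3.13).

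Per exon length, the transcripts that gained most abundance were those of the ribosome. The 10 largest gains in RPKM were all ribosomal protein genes, namely rpl-38, rpl-39, rps-25, rps-23, rps-21, rps-7, rla-1, rpl-36, rps-0 and rps-8. The transcript level of rpl-38, of the large subunit, went from 4220 ± 610 to 8690 ± 1700 RPKM (SD, n = 2), or by 1.04 ± 0.23 on the log2 scale (adjusted p = 0.00216). For rps-23 of the small subunit it went from 2830 ± 20 to 5680 ± 33 RPKM (1 ± 0.12, adjusted p = 2.32e-05). These are modest fold changes of very abundant mRNAs, between 0.71 for rpl-39 and 1.25 for rla-1. With scaling to totals none of the 10 but rla-1 passed, with adjusted p from 0.14 to 0.502 for the other 9, and rpl-39 did not pass when fed replicate 2 (adjusted p = 0.0619) or the starved library numbered 1 (adjusted p = 0.0566) was left out.

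The largest losses in RPKM were those of ant-1.1 and of the sequence-named gene F56H9.2, which went from 4050 ± 770 to 441 ± 110 RPKM. The gene of the ADP/ATP translocase ANT-1.1, which exchanges ATP across the inner mitochondrial membrane (ant-1.1, III, 13463130 to 13464238), was at 7320 ± 460 RPKM in starved and 3340 ± 440 RPKM in fed larvae (-1.13 ± 0.26, adjusted p = 0.00283). The myosin light chain gene mlc-3 went from 1500 ± 21 to 674 ± 42 RPKM (-1.16 ± 0.15, adjusted p = 4.44e-05) and the troponin C gene pat-10 from 1180 ± 89 to 512 ± 37 RPKM (-1.2 ± 0.13, adjusted p = 6.3e-06). The body wall muscle markers summed to 9050 and 8850 CPM in starved and 4280 and 5140 CPM in fed libraries, and their part in these losses was not tested. The autophagy gene lgg-1, which encodes the worm Atg8 protein, went from 940 ± 15 to 303 ± 4.3 RPKM (-1.63 ± 0.08, adjusted p = 2.29e-08). The aldolase gene aldo-2 of glycolysis fell by 1.53 ± 0.2 (adjusted p = 3.66e-05). The gene T07A9.9, now named nog-1, fell by 1.76 ± 0.16 (adjusted p = 2.27e-06), although it belongs to the otherwise rising list of ribosome assembly factors. The sequence-named genes F56H9.2, F58D5.5, F53B2.8 and F01G4.6 completed the 10 largest losses, at log2 fold changes of -3.2, -1.93, -4.53 and -1.08, the last not passing without fed replicate 1 (adjusted p = 0.059).

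**Figure D3:**
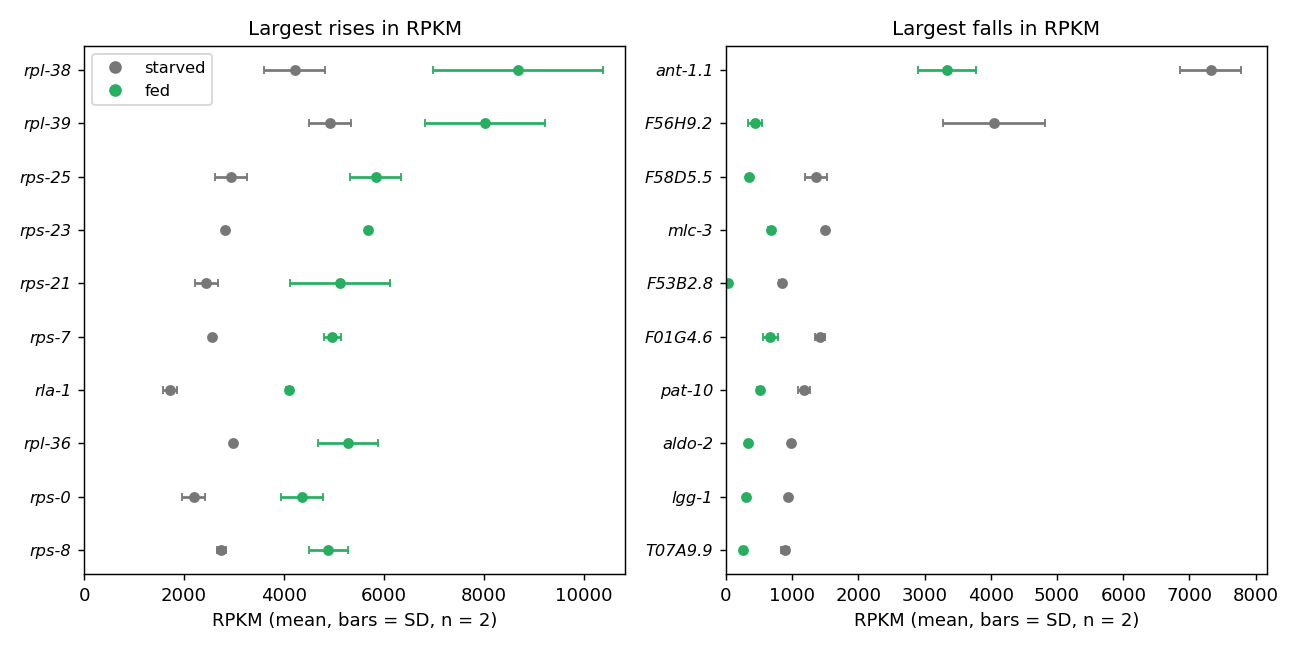
Mean RPKM in starved (grey) and fed (green) wild-type larvae with SD as bars (n = 2) for the 10 called coding genes with the largest gain (left) and the 10 with the largest loss (right), on linear axes from 0. The gains are all ribosomal protein genes, and ant-1.1, at 7320 RPKM in starved larvae, heads the losses.

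Transcripts of the insulin receptor and of its downstream kinase and transcription factor were less abundant in fed larvae. In the list of 17 genes from the insulin receptor to DAF-16, 3 rose and 6 fell, with a median log2 fold change of -0.1, beside 24.4% and 21.5% of all genes tested and a median of -0.01. The receptor gene daf-2 (III, 2995911 to 3028694, minus strand) had 444 and 462 CPM in the starved libraries and 213 and 218 CPM in the fed ones, so that its log2 fold change was -1.07 ± 0.11 (adjusted p = 5e-06). At the start it was at 381 and 420 CPM, so that the fed libraries alone stood apart. The kinase gene akt-1 (V, 10248931 to 10252426, plus strand) had 137 and 121 CPM in starved and 59.8 and 55.8 CPM in fed libraries (-1.16 ± 0.09, adjusted p = 5.55e-07). The FOXO gene daf-16 (I, 10750487 to 10775039, plus strand) had 183 and 192 CPM in starved and 104 and 120 CPM in fed libraries, without overlap (-0.74 ± 0.15, adjusted p = 0.0012). The 14-3-3 gene par-5, whose protein holds phosphorylated DAF-16 in the cytoplasm, rose by 0.74 ± 0.09 (adjusted p = 1.77e-05), and hcf-1, a nuclear partner that restrains DAF-16, by 0.63 ± 0.09 (adjusted p = 9.7e-05). With totals as the scale neither passed (adjusted p = 0.35 and 0.37), and no gene of the list rose while 6 fell.

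Insulin-like peptide genes rose and fell in shares near those of all genes. Of 39 counted, 30 passed the filter on low counts, and of these 6 rose (20%) and 7 fell (23.3%), beside 24.4% and 21.5% of all genes tested. The daf-28 gene (V, 19815414 to 19816116, plus strand), which encodes an agonist of DAF-2 made in sensory neurons, had 1.15 and 0.999 CPM in the starved libraries and 4.31 and 5.41 CPM in the fed ones (2.16 ± 0.29, adjusted p = 6.02e-05). The ins-26 and ins-30 genes, which are neighbours on chromosome I, rose by 1.6 ± 0.24 (adjusted p = 0.000112) and 1.25 ± 0.19 (adjusted p = 0.000144), the latter not passing under scaling to totals (adjusted p = 0.0542). Their neighbour ins-24 fell, from 3.48 and 2.95 CPM to 1.14 and 0.765 CPM (-1.73 ± 0.29, adjusted p = 0.000331). Agonist genes did not move as one. By contrast with daf-28, ins-4 was higher in starved larvae, at 2.3 and 1.69 CPM against 0.605 and 1.02 CPM in fed and 0.359 and 0.457 CPM at the start (-1.34 ± 0.44, adjusted p = 0.0238). The ins-6 gene, at 0.732 and 0.304 against 1.28 and 1.12 CPM, did not pass (1.14 ± 0.48, adjusted p = 0.0738). Single libraries decided some of these calls. The ins-4 gene did not pass when fed replicate 1 (adjusted p = 0.201) or the starved library numbered 1 (adjusted p = 0.148) was left out, and ins-6 passed without starved replicate 1 (1.98, adjusted p = 0.0368). The count of falls was 3 without fed replicate 1 and 4 without either starved library, and under scaling to totals 3 peptide genes rose and 7 fell.

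Among the 30 genes of the TOR complexes and AMPK, 8 rose and 8 fell, 26.7% each, which is near the shares of all genes. The rises numbered 5 without fed replicate 1 or starved replicate 2 and 3 under scaling to totals, and with totals without rrn-2.1 4 rose and 14 fell. The kinase gene let-363, the worm TOR, was close to level at 220 and 213 CPM in starved and 265 and 263 CPM in fed libraries (0.29 ± 0.08, adjusted p = 0.0111). That call was lost when fed replicate 1 (adjusted p = 0.0654) or the starved library numbered 2 (adjusted p = 0.0784) was left out, and under scaling to totals the change was -0.07 (adjusted p = 0.868) and with totals without rrn-2.1 0.04 (adjusted p = 0.751). Nor did it pass with no filter (adjusted p = 0.0532) or at a mean of at least 5 CPM (adjusted p = 0.152). The amino acid sensing GTPase genes differed. The ragc-1 gene rose from 23.3 and 22.5 CPM to 50.7 and 45.8 CPM (1.07 ± 0.08, adjusted p = 3.38e-07), while its partner raga-1 did not pass (0.07 ± 0.1, adjusted p = 0.596). The cap-binding translation factor gene ife-2 (X, 381528 to 382704, minus strand) rose from 24.7 and 24.9 CPM to 81 and 82.1 CPM (1.72 ± 0.07, adjusted p = 8.13e-09). On the side of AMPK, the kinase that is active at low energy, the catalytic subunit gene aak-1 fell from 18.1 and 17.9 CPM to 7.8 and 9.44 CPM (-1.07 ± 0.12, adjusted p = 1.1e-05). The regulatory subunit gene aakg-4 fell further, from 59.3 and 59 CPM to 18 and 17.8 CPM (-1.73 ± 0.1, adjusted p = 6.92e-08). The autophagy initiation gene atg-13 fell by 1.05 ± 0.1 (adjusted p = 2.22e-06).

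Transcription factors of nutrient and stress responses either fell or did not pass the test. Of 28 tested, 14 fell and none rose by the test, with a median log2 fold change of -0.37. For comparison, 21.5% of all genes tested fell. The hlh-30 gene (IV, 4015753 to 4028080, minus strand), the worm TFEB that switches on lysosomal and autophagy genes in fasting, had 251 and 281 CPM in the starved libraries and 132 and 159 CPM in the fed ones (-0.87 ± 0.18, adjusted p = 0.00129). The nuclear receptor gene nhr-49, which drives fatty acid oxidation including acs-2 in fasted worms, had 121 and 115 against 82.2 and 87 CPM (-0.48 ± 0.08, adjusted p = 0.000306). The fed libraries lay below the starved ones in both, by less than 2-fold. The largest fall in the list was that of cebp-1, from 123 and 134 CPM to 42.5 and 52.5 CPM (-1.44 ± 0.2, adjusted p = 6.24e-05). The skn-1 gene, the worm Nrf, did not pass (-0.04 ± 0.13, adjusted p = 0.846), but it fell with totals without rrn-2.1 (-0.29, adjusted p = 0.0406). The pha-4 gene, a FOXA factor, fell by 0.71 ± 0.23 (adjusted p = 0.0215) and pqm-1 by -0.35 ± 0.11 (adjusted p = 0.0212). Neither of these passed without fed replicate 1 (adjusted p = 0.207 and 0.171) or without either starved library (0.0667 to 0.0775 and 0.0562 to 0.103). Nor did pqm-1 pass with totals (adjusted p = 0.0591) or from the 8 wild-type libraries alone (adjusted p = 0.0565). In the list as a whole 8 genes fell without fed replicate 1 or starved replicate 2, 9 without starved replicate 1 and 23 with totals without rrn-2.1, and none rose in these. From the 4 libraries alone, and with the replicate block, 1 rose.

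**Figure D4:**
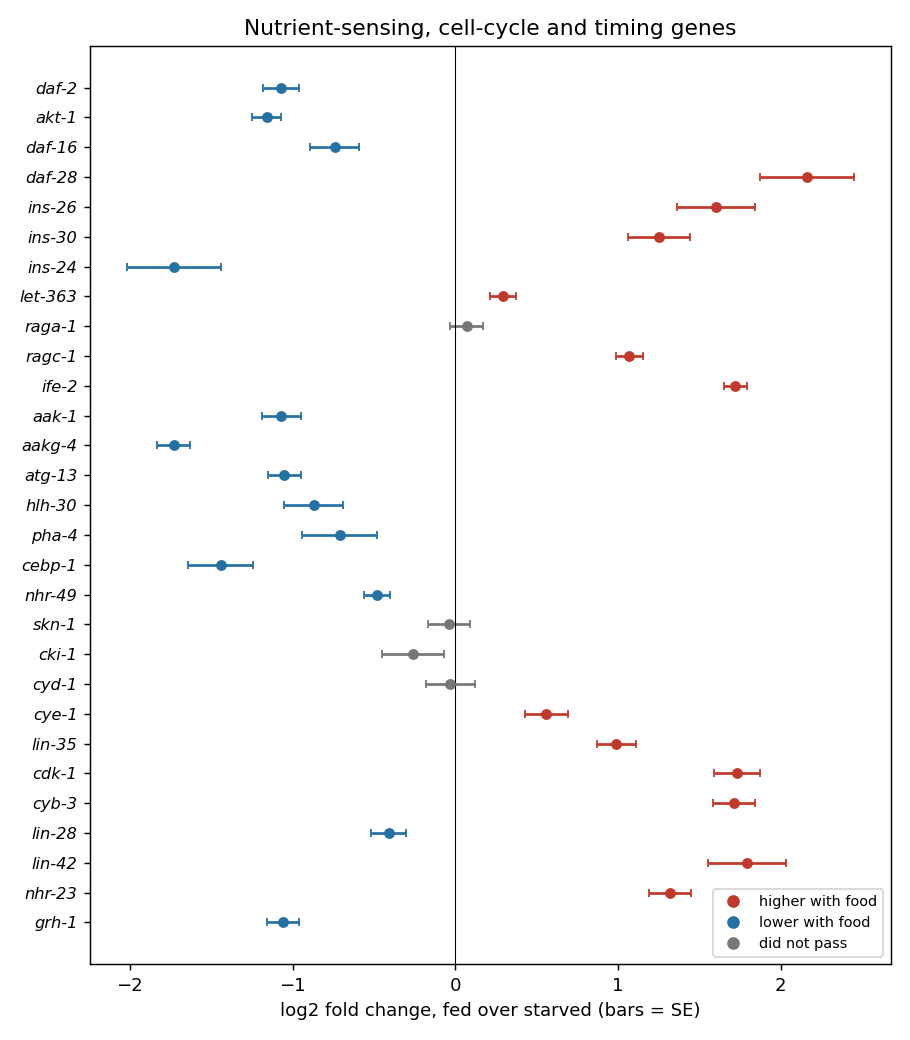
Log2 fold change of fed over starved wild-type larvae with SE for genes of nutrient sensing, transcription, the cell cycle and developmental timing; red genes rose, blue genes fell and grey genes did not pass the test. The receptor daf-2, akt-1 and daf-16 lie left of 0, daf-28 and ife-2 right of it, and cyd-1, skn-1 and raga-1 near 0.

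In metabolism, most genes of nucleotide synthesis rose with TMM scaling. Of 21 genes of the purine, pyrimidine and deoxynucleotide pathways, 17 rose (81%) and 2 fell (9.52%), with a median log2 fold change of 1.06. The shares of all genes tested were 24.4% and 21.5%. The ppat-1 gene, whose enzyme commits phosphoribosyl pyrophosphate to purine synthesis, went from 2.67 and 2.65 CPM to 13.2 and 13.1 CPM (2.31 ± 0.14, adjusted p = 6.76e-08). The adenylate kinase gene let-754 rose by 2.16 ± 0.09 (adjusted p = 8.13e-09) and dut-1, whose enzyme keeps dUTP out of DNA, by 1.55 ± 0.09 (adjusted p = 6.49e-08). The exceptions that fell were pyr-1 and adss-1. With totals 9 of the 21 rose and 2 fell.

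Genes of one-carbon metabolism moved in both directions. Of 28 genes, 14 rose (50%) and 8 fell (28.6%), beside 24.4% and 21.5% of all genes tested. Under scaling to totals 6 rose and 8 fell. The folate transporter gene folt-2 (V, 2872713 to 2875476, minus strand) was at 6.06 and 5.69 CPM in starved and 64.5 and 61.6 CPM in fed libraries (3.42 ± 0.18, adjusted p = 3.42e-08). The cystathionine gamma-lyase gene cth-2, of the path from methionine to cysteine, rose by 2.22 ± 0.13 (adjusted p = 6.42e-08), and R12C12.1, now named gldc-1, a glycine decarboxylase gene, by 1.33 ± 0.09 (adjusted p = 1.12e-07). The methionine synthase gene metr-1 moved the other way and also differed between start and starved larvae. It had 311 and 307 CPM at the start, 613 and 603 CPM in starved and 246 and 227 CPM in fed libraries (-1.36 ± 0.12, adjusted p = 1.1e-06). The aldehyde dehydrogenase gene alh-3 fell by 1.37 ± 0.08 (adjusted p = 5.09e-08).

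In central carbon metabolism rises outnumbered falls with TMM scaling, but not with totals. Of 19 glycolytic genes 6 rose (31.6%) and 4 fell (21.1%). Of 24 genes of pyruvate dehydrogenase and the citric acid cycle 8 rose (33.3%) and 3 fell (12.5%). The shares of all genes tested were 24.4% and 21.5%. The succinyl-CoA synthetase gene sucg-1 rose from 13.2 and 13.7 CPM to 46.2 and 45.4 CPM (1.77 ± 0.1, adjusted p = 3.41e-08). The isocitrate dehydrogenase gene idh-1, of the NADP-dependent kind, rose from 225 and 222 CPM to 594 and 660 CPM (1.49 ± 0.12, adjusted p = 6.74e-07). The lactate dehydrogenase gene ldh-1 had 60.5 and 66.2 CPM in starved and 137 and 155 CPM in fed libraries (1.21 ± 0.14, adjusted p = 1.45e-05). The glycolytic phosphofructokinase genes diverged. The pfk-1.1 gene rose by 0.8 ± 0.08 (adjusted p = 4.51e-06), whereas pfk-1.2 was at 1.57 and 1.78 CPM in starved and 0.285 and 0.153 CPM in fed libraries (-2.85 ± 0.39, adjusted p = 6.79e-05). With totals no glycolytic gene rose and 4 fell, 2 citric acid cycle genes rose and 3 fell, and ldh-1 and pfk-1.1 did not pass (adjusted p = 0.054 and 0.242). With totals without rrn-2.1 the rises and falls numbered 3 and 7 in glycolysis and 7 and 5 in the citric acid cycle.

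Lipase and fatty acid binding genes moved strongly in both directions. Of 25 tested, 8 rose (32%) and 10 fell (40%), beside 24.4% and 21.5% of all genes tested, and with totals 5 rose. The lysosomal lipase gene lipl-3 was at 14 and 10.2 CPM in starved and 0.427 and 0.255 CPM in fed libraries, and at 6.7 and 8.75 CPM at the start (-5.09 ± 0.42, adjusted p = 8.78e-07). The lbp-1 gene (X, 3259146 to 3259741, plus strand), a secreted fatty acid binding protein, went from 80.2 and 83.8 CPM to 14.1 and 13.3 CPM (-2.58 ± 0.08, adjusted p = 2.34e-09). Among those that rose, lbp-5 had 17 and 18.6 against 40.9 and 43.1 CPM (1.24 ± 0.1, adjusted p = 9.6e-07). The lipid droplet gene dhs-3 had 20.4 and 20.7 against 50.7 and 54.8 CPM (1.36 ± 0.12, adjusted p = 1.85e-06).

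Uptake and export were covered by 3 lists. Of 38 transporters of amino acids, peptides, sugars and vitamins 16 rose (42.1%) and 6 fell (15.8%). Of 37 ABC transporters 12 rose and 12 fell (32.4% each). Of 17 genes of metal and heme handling 5 rose (29.4%) and 4 fell (23.5%), near the 24.4% and 21.5% of all genes tested. The counts under scaling to totals were 3 and 5, 8 and 10, and 2 and 4, the first list had 12 rises and 10 falls with totals without rrn-2.1, and without fed replicate 1 or 2 the rises among metal and heme genes numbered 3. Besides folt-2, the related folt-1 rose by 1.23. The glutamate transporter gene glt-5 fell by 2.03 ± 0.19 (adjusted p = 2.3e-06) and the peptide transporter gene pept-2 by -1.02. Transporters known from lysosome-related organelles of the intestine were among those that rose. The haf-9 gene went from 54.8 and 40.8 CPM to 218 and 205 CPM (2.14 ± 0.13, adjusted p = 9.3e-08), and the lysosome-related organelle gene pgp-2 from 27.6 and 25.8 CPM to 58.8 and 58.7 CPM (1.13 ± 0.08, adjusted p = 1.71e-07). The ABC transporter gene wht-3 had 56 and 27 reads in the starved libraries and none in the fed ones, which at 3 reads over both fed libraries makes it at least 21.5-fold lower. It had 0.193 and 0.284 CPM in larvae fed with 3MB-PP1. Among heme transporters, hrg-4, an intestinal importer, rose from 0.34 and 0.347 CPM to 1.21 and 1.22 CPM (1.82 ± 0.31, adjusted p = 0.000343), and hrg-1, which exports heme from lysosomal compartments, fell from 6.45 and 7.77 CPM to 2.88 and 1.94 CPM (-1.54 ± 0.24, adjusted p = 0.000199).

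With TMM scaling, most genes of the machinery that makes ribosomes rose. Of 23 genes of RNA polymerases I and III 20 rose (87%) and 1 fell (4.35%), with a median log2 fold change of 1.11. Of 25 nucleolar and assembly factors 21 rose (84%) and 3 fell (12%), with a median of 1.25. The shares of all genes tested were 24.4% and 21.5%. The second largest subunit of RNA polymerase I, rpoa-2 (I, 9281301 to 9286554, minus strand), had 41.4 and 40.4 CPM in the starved libraries and 202 and 172 CPM in the fed ones (2.2 ± 0.11, adjusted p = 2.29e-08). The corresponding subunit of RNA polymerase III, rpc-2, had 69.7 and 69.5 CPM in starved and 244 and 222 CPM in fed libraries (1.74 ± 0.08, adjusted p = 1.76e-08). The box C/D snoRNP core gene nol-5 (I, 3267104 to 3268801, plus strand), the worm Nop58, went from 102 and 98.5 CPM to 658 and 676 CPM (2.74 ± 0.12, adjusted p = 1.16e-08). For the 3 genes the fed libraries were several times higher than the starved and start libraries. The small subunit processing factor wdr-46 rose by 2.04 ± 0.08 (adjusted p = 8.13e-09) and nol-6 by 1.72 ± 0.09 (adjusted p = 2.4e-08). The genes that fell were snpc-1.1 among the polymerase genes and T07A9.9, ngp-1 and lpd-7 among the assembly factors. Scaled to totals, 13 of the 23 polymerase genes rose and 1 fell, and with totals without rrn-2.1 16 rose and 2 fell. Of the 25 assembly factors 15 rose and 3 fell with totals.

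The nucleus and its traffic changed less. Of 41 nuclear pore and transport genes 24 rose and 2 fell, with a median log2 fold change of 0.39. Importin alpha ima-2 rose from 19.5 and 20.8 CPM to 68.4 and 63.1 CPM (1.7 ± 0.1, adjusted p = 4.91e-08), and ran-4, the import factor of the Ran GTPase, by 1.01 ± 0.1 (adjusted p = 2.85e-06). When scaled to totals 2 of the 41 rose and 3 fell, and ran-4 did not pass (adjusted p = 0.0516). With totals without rrn-2.1 18 rose and 7 fell. Of 77 chromatin modifiers and remodellers 29 rose (37.7%) and 11 fell (14.3%), with a median of 0.19. Of all genes tested 24.4% rose and 21.5% fell. Under scaling to totals 6 of the 77 rose and 10 fell, with a median of -0.17. With totals without rrn-2.1 19 rose and 21 fell. Without starved replicate 1 the falls numbered 7. The histone deacetylase gene hda-1 rose from 35.4 and 37.8 CPM to 76.1 and 82.5 CPM (1.11 ± 0.08, adjusted p = 1.74e-07). SET domain genes parted, with set-31 rising by 2.04 ± 0.14 (adjusted p = 2.14e-07), set-27 by 1.3 and set-29 by 1.56, and set-5 falling from 16.9 and 14.4 CPM to 3.88 and 3.62 CPM (-2.06 ± 0.19, adjusted p = 2.17e-06).

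With TMM scaling, most genes for protein entry into the endoplasmic reticulum (ER) and into mitochondria rose. Of 40 genes of ER translocation, glycosylation and folding 34 rose (85%) and 1 fell (2.5%), with a median of 1.28. The shares of all genes tested were 24.4% and 21.5%. The oligosaccharyltransferase genes ostb-1, ostd-1 and ribo-1 rose by 1.66 ± 0.1 (adjusted p = 7e-08), 1.54 and 1.37. The member that fell was xbp-1, the transcription factor of the unfolded protein response, from 457 and 451 CPM to 226 and 214 CPM (-1.05 ± 0.08, adjusted p = 7.12e-07). Of 34 genes of COPI and COPII coats and Golgi traffic 26 rose and 2 fell (at most 1 fell without any single library), and sec-23 of the COPII coat rose by 1.31 ± 0.12 (adjusted p = 2.19e-06). Under scaling to totals 3 of the 34 rose and 1 fell, and 21 of the 40 ER genes rose and 1 fell. Mitochondrial import and chaperones had 26 rises (89.7%) and no fall among 29 genes, with a median of 1.62. There were 21 rises with totals, and 25 rises and 1 fall with totals without rrn-2.1. The chaperonin gene hsp-60 (III, 1619750 to 1625397, plus strand) had 140 and 125 CPM in starved and 1260 and 1290 CPM in fed libraries, and 99.7 and 92.1 CPM at the start (3.26 ± 0.13, adjusted p = 4.85e-09). The mitochondrial processing peptidase gene mppa-1 went from 11.9 and 13 CPM to 68.5 and 61.8 CPM (2.39 ± 0.09, adjusted p = 4.99e-09), and the insertase gene oxa-1 from 12.8 and 12.5 CPM to 51.1 and 49.7 CPM (2 ± 0.09, adjusted p = 1.63e-08).

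**Figure D5:**
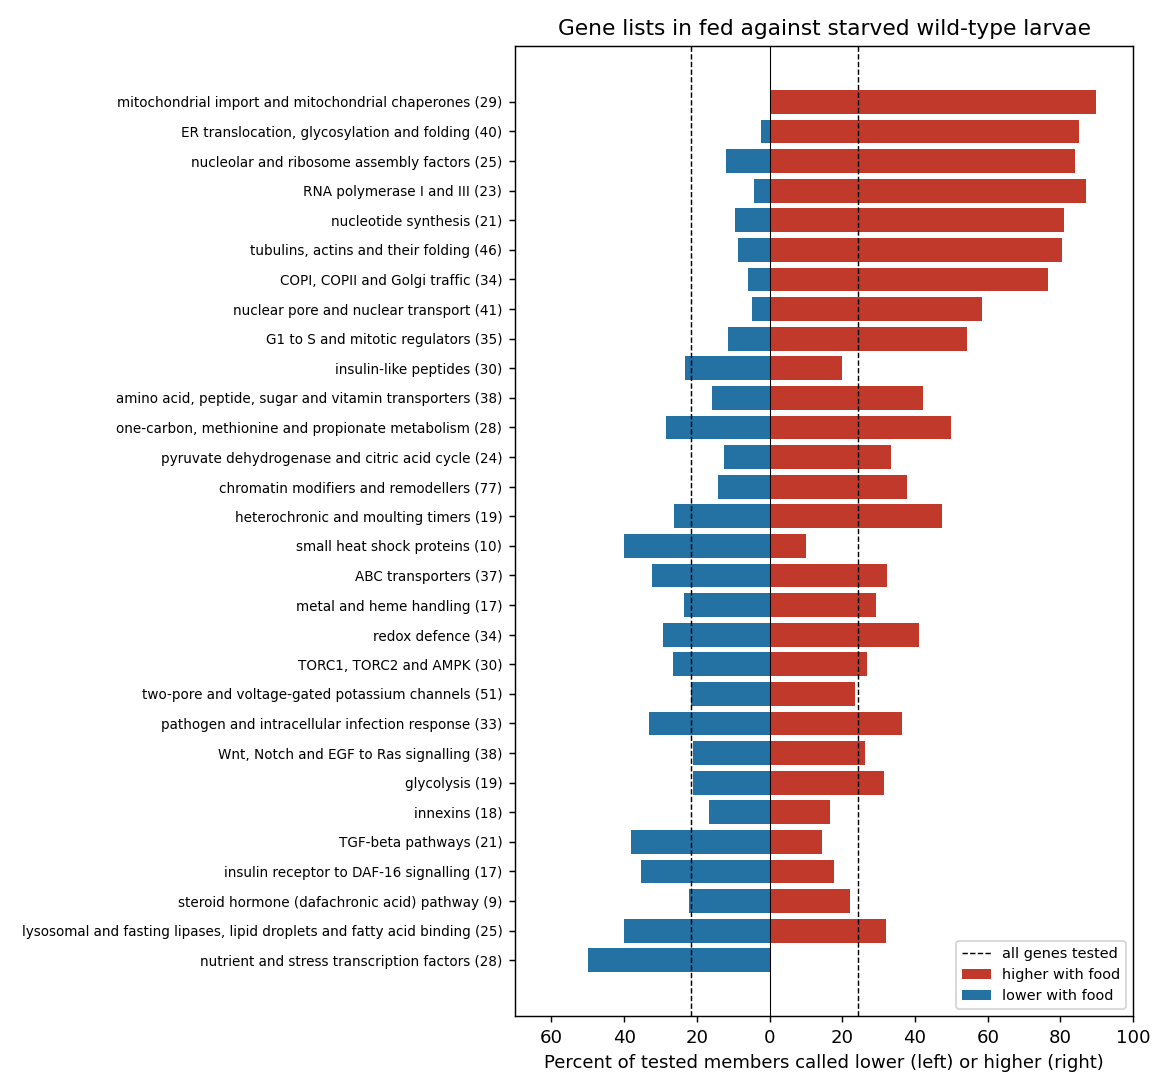
Percent of tested members of each of 30 gene lists that rose (red, to the right) or fell (blue, to the left) with food in wild-type larvae, ordered by median log2 fold change, with the number tested in brackets and dashed lines at 24.4% and 21.5% for all genes tested. The mitochondrial import, ER, nucleolar, RNA polymerase I and III, nucleotide synthesis and tubulin lists exceed 80% higher with TMM scaling, and the transcription factor list has 50% lower and none higher.

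Among regulators of the cell cycle rises outnumbered falls. Of 35 genes 19 rose (54.3%) and 4 fell (11.4%), with a median log2 fold change of 0.36. Of all genes tested 24.4% rose and 21.5% fell. Under scaling to totals 9 of the 35 rose and 2 fell, with a median of -0.01. With totals without rrn-2.1 14 rose and 8 fell. The falls numbered 1 without fed replicate 1 or starved replicate 2 and 2 without starved replicate 1. The mitotic kinase gene cdk-1 (III, 9747389 to 9748583, plus strand) had 11.4 and 14 CPM in starved and 44.4 and 39.9 CPM in fed libraries (1.73 ± 0.14, adjusted p = 8.55e-07). The cyclin B gene cyb-3 had 11.3 and 15.4 against 44.1 and 42.9 CPM (1.71 ± 0.13, adjusted p = 3.79e-07), and the phosphatase gene cdc-25.2 rose by 1.8 ± 0.13 (adjusted p = 2.51e-07). The CDK inhibitor gene cki-1, a target of DAF-16 required for the arrest, did not pass, at 18.3 and 19.4 CPM in starved and 13.7 and 17.7 CPM in fed libraries (-0.26 ± 0.19, adjusted p = 0.289). It fell with totals without rrn-2.1 (-0.52, adjusted p = 0.0302). Cyclin D cyd-1 did not pass either (-0.03 ± 0.15, adjusted p = 0.891), and cyclin E cye-1 rose by 0.56 ± 0.13 (adjusted p = 0.00276), a call lost under scaling to totals (adjusted p = 0.598) and to totals without rrn-2.1 (adjusted p = 0.0774). The retinoblastoma gene lin-35, which restrains S phase, rose from 31.2 and 30.3 CPM to 63.8 and 58.5 CPM (0.99 ± 0.12, adjusted p = 2.96e-05), together with lin-53, a histone-binding partner of it (1.6 ± 0.09, adjusted p = 3.9e-08).

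Several timing genes of the moulting cycle rose. Of 19 heterochronic and moulting genes 9 rose (47.4%) and 5 fell (26.3%), beside 24.4% and 21.5% of all genes tested. Under scaling to totals 3 rose and 6 fell, and with totals without rrn-2.1 5 rose and 7 fell. The nuclear receptor gene nhr-23, which drives each moult, had 11.3 and 14.1 CPM in starved and 31.3 and 32 CPM in fed libraries (1.32 ± 0.13, adjusted p = 3.43e-06). The Period homologue lin-42 (II, 1234182 to 1244022, minus strand), whose mRNA cycles with the moults, rose from 2.48 and 2.95 CPM to 7.23 and 11.6 CPM (1.79 ± 0.24, adjusted p = 4.46e-05). The transcription factor gene grh-1, of the same cycle, fell from 61.9 and 61.6 CPM to 29.7 and 29.6 CPM (-1.06 ± 0.1, adjusted p = 2.73e-06). The lin-28 gene, an RNA-binding regulator of early larval fates, fell by 0.41 ± 0.11 (adjusted p = 0.00714), and did not pass without fed replicate 2 (adjusted p = 0.0789).

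Among hormone and growth factor genes 3 lists were counted. Of 9 genes of the dafachronic acid pathway, a steroid path of reproductive growth, 2 rose and 2 fell (22.2% each), and 1 rose with totals. The Rieske oxygenase gene daf-36, which takes the first step from cholesterol, went from 1.33 and 1.3 CPM to 8.12 and 7.14 CPM (2.53 ± 0.19, adjusted p = 4.72e-07), and the sterol transporter gene ncr-2 from 3.68 and 3.04 CPM to 1.03 and 0.816 CPM (-1.85 ± 0.3, adjusted p = 0.00025). Of 21 TGF-beta genes 3 rose (14.3%) and 8 fell (38.1%), beside 24.4% and 21.5% of all genes tested, and with totals without rrn-2.1 1 rose and 13 fell. Within the body size branch, the Smad gene sma-4 had 40.6 and 39.5 CPM at the start, 81.7 and 76.7 CPM in starved and 28.2 and 28.4 CPM in fed libraries (-1.48 ± 0.12, adjusted p = 5.12e-07). The receptor gene sma-6 fell by 1.24 ± 0.12 (adjusted p = 3.23e-06). The lon-1 gene, which the branch represses and which limits body length, rose from 21.2 and 22.4 CPM to 149 and 135 CPM (2.71 ± 0.18, adjusted p = 1.25e-07). Of 38 Wnt, Notch and EGF to Ras genes 10 rose (26.3%) and 8 fell (21.1%), close to the shares of all genes, with 4 falls without fed replicate 1 and 5 without either starved library. With totals 2 rose and 6 fell, and with totals without rrn-2.1 7 rose and 16 fell. The FGF gene egl-17 went from 0.47 and 0.652 CPM to 3.56 and 3.11 CPM (2.6 ± 0.27, adjusted p = 6.74e-06) and the Wnt gene mom-2 rose by 1.82 ± 0.26 (adjusted p = 8.3e-05).

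In stress and defence lists, rises and falls came side by side. Of 33 genes of the response to pathogens 12 rose (36.4%) and 11 fell (33.3%), beside 24.4% and 21.5% of all genes tested. The infection response gene irg-4, listed as F08G5.6 (IV, 12435828 to 12438167, plus strand), had 0.836 and 0.652 CPM in starved and 90.9 and 89.9 CPM in fed libraries (6.89 ± 0.23, adjusted p = 2.34e-09). With it rose dod-24, from 0.601 and 0.565 CPM to 27.7 and 27.9 CPM (5.56 ± 0.16, adjusted p = 1.1e-09), and the lysozyme gene lys-1, from 62.4 and 61.2 CPM to 173 and 172 CPM (1.48 ± 0.1, adjusted p = 1.49e-07). Both irg-4 and dod-24 are known to respond to pathogenic bacteria, and OP50 was the only bacterium given here. The irg-1 gene, known to be induced by Pseudomonas through zip-2, fell from 7.47 and 8.77 CPM to 1.6 and 2.4 CPM (-2.04 ± 0.21, adjusted p = 4.75e-06). The bZIP factor gene zip-10 fell by 1.85 ± 0.17 (adjusted p = 1.77e-06).

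Of 34 redox genes 14 rose (41.2%) and 10 fell (29.4%), beside 24.4% and 21.5% of all genes tested. The rises numbered 8 with totals without rrn-2.1 and 5 under scaling to totals. The glutathione transferase gene gst-10 had the largest rise of the list, from 2.56 and 2.13 CPM to 31.8 and 25.6 CPM (3.6 ± 0.29, adjusted p = 6.28e-07). The gst-4 gene, a common reporter of SKN-1 activity, rose from 8 and 6.86 CPM to 46.3 and 39.4 CPM (2.52 ± 0.17, adjusted p = 1.91e-07). Of all 41 gst genes tested, however, 10 rose (24.4%) and 16 fell (39%), with a median of -0.16. The extracellular superoxide dismutase gene sod-4 fell from 45.8 and 43.7 CPM to 12.9 and 14.4 CPM (-1.71 ± 0.11, adjusted p = 8.97e-08) and the methionine sulfoxide reductase gene msra-1 by -1.67 ± 0.1 (adjusted p = 7.18e-08). The catalase genes ctl-1, ctl-2 and ctl-3 fell as well, but near-identical sequences make their separate values uncertain. Of 10 small heat shock genes tested of 14 counted, 1 rose (10%) and 4 fell (40%), and none rose with totals. The hsp-12.3 gene went from 11 and 12.5 CPM to 2.92 and 2.96 CPM (-2 ± 0.23, adjusted p = 1.72e-05), and hsp-12.6, a known target of DAF-16, fell by 2.02 ± 0.33 (adjusted p = 0.000245).

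In a list that joins tubulins and actins with the chaperones that fold them, most genes rose with TMM scaling. Of 46 genes 37 rose (80.4%) and 4 fell (8.7%), with a median log2 fold change of 0.68, and under scaling to totals 10 rose and 3 fell. The shares of all genes tested were 24.4% and 21.5%. Tubulins and actins were not counted apart from the chaperones. The falls numbered 2 without fed replicate 1 or either starved library. The chaperonin subunit cct-8 went from 82.4 and 88.8 CPM to 304 and 296 CPM (1.81 ± 0.09, adjusted p = 2.29e-08), cct-6 rose by 1.64 ± 0.08 (adjusted p = 2.4e-08) and the prefoldin gene pfd-3 by 1.64 ± 0.1 (adjusted p = 7.54e-08). The intestinal actin gene act-5, which builds the microvilli and is one of the intestine markers, rose from 209 and 199 CPM to 771 and 938 CPM (2.07 ± 0.23, adjusted p = 1.25e-05). Of the 6 intestine markers 3 rose and 2 fell, the latter being elt-7, which did not pass without fed replicate 1 (adjusted p = 0.103) or either starved library (0.0513 and 0.0603), and the esterase gene ges-1.

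Gap junction and potassium channel genes stood near the background. Of 18 innexins 3 rose and 3 fell (16.7% each), and 5 fell with totals without rrn-2.1. Of 51 potassium channel genes 12 rose (23.5%) and 11 fell (21.6%), beside 24.4% and 21.5% of all genes tested. The channel rises numbered 7 without fed replicate 1 or either starved library and none under scaling to totals, and with totals without rrn-2.1 5 rose and 19 fell. The neighbouring innexin genes inx-12 and inx-13 on chromosome I, known from the excretory and seam cells, rose by 1.5 ± 0.1 (adjusted p = 1.58e-07) and 1.58 ± 0.1 (adjusted p = 1.39e-07), and inx-20 fell by 2.51 ± 0.21 (adjusted p = 9.28e-07). The two-pore channel gene twk-25 had the course seen in the plot of levels by library, low at the start, high in starved and low in fed larvae (-1.54 ± 0.18, adjusted p = 1.55e-05). The cause of its higher level in starved than in start larvae was not tested. The related twk-45 fell by 2.5 ± 0.42 (adjusted p = 0.00031).

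The kinds of RNA and the chromosomes contributed unevenly. Of 13744 coding genes tested 3750 rose and 3121 fell. Of 1192 genes annotated as ncRNA 22 rose (1.85%) and 123 fell (10.3%), and of 244 snoRNAs 4 rose (1.64%) and 24 fell (9.84%). Both shares are below the 24.4% and 21.5% of all genes tested. Of 43 antisense RNAs none rose and 14 fell (32.6%). The strand setting of the counting is not given in the sources used here, so reads of antisense RNAs and of their partner genes cannot be told apart. Among coding genes, chromosome V had the lowest share of rises and the highest share of falls, 694 and 963 of 3487 (19.9% and 27.6%). Chromosome III had 752 rises and 501 falls of 2283 (32.9% and 21.9%), and chromosome I had 741 and 462 of 2341 (31.7% and 19.7%).

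The response was set beside that of cdk12-as larvae given the same food without the inhibitor, to see which of these changes depended on the strain. The difference in log2 fold change passed the interaction test for 1064 genes (6.72%). For 600 of them (3.79%) it was higher in cdk12-as and for 464 (2.93%) it was lower. Without 1 of the 4 wild-type libraries in turn these numbered 331 to 342 and 146 to 220, and under scaling to totals 168 and 8. With the replicate number as a block they numbered 945 and 1005, so that the larger side changed. The named genes were chosen on the wild-type libraries that also enter this difference. Among the mitochondrial import genes 9 of 29 had a lower response in cdk12-as, among them hsp-60, at 123 and 143 CPM in starved and 798 and 802 CPM in fed cdk12-as libraries (difference -0.67 ± 0.16, adjusted p = 0.0294). None of the nuclear pore, COPI and COPII, glycolysis or potassium channel genes passed. The F-box gene fbxa-163 had 13.7 and 17.4 CPM in starved and 4.61 and 6.9 CPM in fed cdk12-as libraries, against 53.5 and 56.9 CPM and 0.463 and 0.867 CPM in wild type (difference 5.01 ± 0.47, adjusted p = 0.000151). The irg-4 gene (F08G5.6) had 4.59 and 4.37 CPM in starved and 56.7 and 49.3 CPM in fed cdk12-as libraries, so that its smaller fold change there went with a higher starved level (difference -3.33 ± 0.28, adjusted p = 9.82e-05). The set-5 and irg-1 genes, which fell with food in wild type, were at 15 and 17.6 against 12.8 and 17.7 CPM and at 6.93 and 7.09 against 6.7 and 7.75 CPM in starved and fed cdk12-as libraries. For folt-2, cdk-1, nhr-23 and daf-2 the difference between strains did not pass (-0.18 ± 0.24, -0.11 ± 0.2, 0 ± 0.19 and 0.38 ± 0.15).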

How the data were processed

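RNA was measured in 16 libraries in 8 groups of 2, and the 4 wild-type starved and fed libraries carry the results here. Groups and replicate numbers came from the labels. The gene counts were analysed as the authors deposited them, whole reads per gene with no normalization. Per the submitters' processing notes, which assign no steps, the tools include deepTools 3.2, DESeq2, featureCounts, HISAT2 and Trimmomatic and the build is ce10. Which counter and strand setting made the gene counts is not given in the sources used here, so antisense, overlapping and near-identical genes are uncertain. A second deposited table, made with featureCounts 1.5.0-p2 and strand setting 2 per the file header, gave gene positions and exon lengths on ce10, and its 32 columns of spliced-leader counts, whose names fit none of the sample labels, were left out. Current names and biotypes came from Ensembl release 115, which gave no coordinate.

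Totals and tests did not include lines without a gene name; reads without a feature were 49.9 and 56% of the starved columns and 28.6 and 54.2% of the fed ones. A model in edgeR 4.0.16 (R 4.3.3) was fitted to the counts, as 8 group means over all 16 libraries, with TMM scaling and filterByExpr (minimum count 10), and contrasts were tested by the two-sided quasi-likelihood F test. Residual degrees of freedom were 8, and the biological coefficient of variation was 17.3%. The 2 libraries of a group differed beyond sampling noise (chi-square per degree of freedom 55.1 and 146). SE is the absolute log2 fold change over the square root of F. The procedure was tested on simulated data. Gene lists and members were chosen with earlier results of these data known, so their counts are descriptions beside all genes tested. Genes were named as the 10 largest rises and falls at a mean of at least 20 CPM, the 10 largest in RPKM, at most 4 of each list by lowest adjusted p, and a set of regulators; further list members were named after their values were seen. The text describes some of the list members so selected and leaves out others, and one of the regulators is not reported here. Same-numbered libraries deviated together in all 28 pairs of groups (correlations over genes of 0.14 to 0.54, and 0.21 for starved and fed wild type), so a fit with the replicate number as a block is given where it moves a count by over 1.5 times. Alternatives were DESeq2 1.42.0, other scalings, filters and library sets, a replicate block and leaving out each library.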

Additional observations from a re-analysis of the deposited data

Results flagged for a closer look

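The named genes below are listed because their response to food differed between cdk12-as larvae without inhibitor and wild-type larvae by the interaction test (edgeR, adjusted over all genes tested). Values are the log2 fold change with food in cdk12-as minus that in wild type. Of the genes tested 6.72% passed, and the genes were named by their wild-type response, which enters the difference. No explanation was weighed.

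Among genes that rose with food in wild type, every listed difference was negative. The difference was -3.33 for F08G5.6, -2.36 for dct-17, -2.35 for dod-24, -2.1 for cysl-2, -2.1 for gst-10, -2.06 for col-149, -2.05 for fbn-1, -1.98 for mth-1 and -1.4 for gst-4. Next came -1.4 for egl-17, -1.36 for ugt-22, -1.27 for pcp-2, -1.2 for ppat-1, -1.19 for ins-26, -1.15 for cth-2, -1.06 for ins-30, -0.94 for cdc-25.2 and -0.81 for nol-5. It was -0.79 for set-29, -0.72 for wdr-46, -0.72 for set-31, -0.69 for cct-8, -0.68 for oxa-1, -0.68 for haf-9, -0.67 for hsp-60, -0.66 for pgp-2 and -0.64 for ragc-1. Smaller ones were -0.62 for inx-13, -0.61 for pfd-3, -0.61 for rpc-2, -0.58 for ife-2, -0.58 for cct-6, -0.57 for sucg-1, -0.53 for inx-12, -0.53 for mppa-1 and -0.51 for hda-1. The smallest were -0.51 for ribo-1, -0.48 for nol-6 and -0.47 for let-754.

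Among genes that fell with food in wild type, every listed difference was positive. The difference here was 7.69 for wht-3, 5.01 for fbxa-163, 3.14 for cdh-5, 2.81 for F53B2.8, 2.27 for mtl-1, 2.23 for hil-1, 2.15 for cht-1, 2.09 for irg-1 and 1.97 for set-5. Below these were 1.79 for inx-20, 1.72 for acs-2, 1.67 for glc-1, 1.61 for nduf-2.2, 1.48 for F56H9.2, 1.31 for lbp-1, 1.27 for far-7, 1.23 for cebp-1 and 1.22 for hrg-1. It amounted to 1.13 for sod-4, 1.12 for lgg-1, 1.03 for snpc-1.1, 1.01 for aakg-4, 0.99 for sma-6, 0.99 for zip-10, 0.96 for glt-5, 0.84 for alh-3 and 0.8 for xbp-1. Then came 0.77 for aak-1, 0.75 for adss-1, 0.7 for atg-13, 0.65 for msra-1, 0.64 for pat-10, 0.63 for akt-1, 0.63 for metr-1 and 0.6 for sma-4. The value of wht-3 rests on fed wild-type libraries at 0 and is no measure of size.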

How the results depend on the processing

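No gene called in fed against starved wild-type larvae was called in the opposite direction under any of 13 alternatives. Counts of rises and falls were 3659 and 3148 with DESeq2, 3915 and 3598 from the 4 libraries alone, 3264 to 3393 and 2587 to 2804 without 1 of the 4 libraries in turn. Scaling to totals gave 1314 rises, with 845 genes over 2-fold higher and 2805 over 2-fold lower, and totals without rrn-2.1 gave 1055 over 2-fold higher. A mean of at least 5 CPM, which tests 8347 genes and moved the median by -0.16, left 887 and 840 genes over 2-fold higher and lower. With that filter the rises and falls numbered 1 and 1 for insulin-like peptides, 5 and 13 for TOR and AMPK, 7 and 6 for the response to pathogens and 5 and 13 for Wnt, Notch and EGF to Ras genes. Responses higher and lower in cdk12-as numbered 168 and 8 with totals, 904 and 154 with totals without rrn-2.1, and 331 to 342 and 146 to 220 without 1 library in turn, and those lower numbered 220 with no filter. The cause of these shifts was not tested.

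The replicate numbers were also fitted as a replicate block. The labels' protocols say that a culture was divided between conditions, without tying the numbers to a culture. With the block 4222 genes rose and 3803 fell, and responses higher and lower in cdk12-as numbered 945 and 1005, and no call of a named gene changed. Among list counts, 1 transcription factor and 2 small heat shock genes rose with it, against none and 1 without.

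Among named genes that did not pass, or passed narrowly, some changed sign. With totals let-363 was -0.07 and raga-1 -0.31, and with totals without rrn-2.1 raga-1 was -0.18. At a mean of at least 5 CPM raga-1 was -0.09. Without 1 of the 4 libraries in turn cyd-1 ranged from -0.19 to 0.14, raga-1 from -0.04 to 0.18 and skn-1 from -0.12 to 0.04. Without fed replicate 1 these were 0.08, -0.04 and 0.04.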

Other observations

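Gene families that share a symbol prefix were counted after their values had been seen, without a test, beside 24.4% of all genes tested that rose and 21.5% that fell. Of 39 mrpl genes and 27 mrps genes, which encode the large and small subunits of the mitochondrial ribosome, 37 and 26 rose, with median log2 fold changes of 1.29 and 1.42, and 1 mrps gene fell. Scaled to totals, 29 and 23 of them rose, with medians of 0.92 and 1.05. All 13 eif genes tested, for translation initiation factors, and all 8 exos genes, for the RNA exosome, rose (medians 1.47 and 0.83), against 7 and 2 with totals. Of 19 vha genes, for subunits of the proton pump V-ATPase, 15 rose and 1 fell, and with totals 1 rose and 1 fell. Of 8 elo genes, for fatty acid elongases, 6 rose and none fell, and with totals 1 rose. The ugt genes, whose enzymes add sugars to small molecules, had 26 rises and 11 falls among 61, with a median of 0.36 that became -0.01 with totals.

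Other families had more falls. Of 40 ttr genes, for transthyretin-related secreted proteins, 2 rose and 23 fell, with a median log2 fold change of -0.68. Of 67 cyp genes, for cytochrome P450 enzymes, 6 rose and 33 fell (median -0.65). Of 140 fbxa genes, for F-box proteins, 6 rose and 52 fell (median -0.45). Among 210 nhr genes, for nuclear hormone receptors, 22 rose and 84 fell (median -0.34). Of 20 flp genes, for FMRFamide-like neuropeptides, none rose and 8 fell (median -0.31), while 4 of the 8 neuron markers fell. With totals the falls in these 5 families numbered 24, 38, 63, 94 and 9 in the order given. Without 1 of the 4 libraries in turn the falls ranged from 38 to 44 for fbxa, 62 to 69 for nhr and 5 to 6 for flp.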
